A study of Sus scrofa with 19 samples.

Results

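The comparison described here sets the adrenal glands of 13 male piglets whose dams ate a diet with an omega-3 source against those of 6 male piglets whose dams ate the control diet, which together are all 19 arrays. The 13 are 8 piglets from the Fish Oil diet and 5 from the Microalgae diet, pooled. Membership was taken from the maternal diet label alone, and the maternal lps label, LPS or Saline, entered the model as a covariate. LPS, lipopolysaccharide, is the component of bacterial outer membranes used to provoke inflammation.

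Within the omega-3 diets, 6 dams had received LPS (4 on fish oil, 2 on microalgae) and 7 had received saline (4 on fish oil, 3 on microalgae). Within the control diet, 3 dams had received LPS and 3 saline. The diets were fed from gestation day 75, the dams were challenged on gestation day 112, and weaning took place at 21 days. Each dam gave 1 male piglet. Every piglet, whatever its dam's diet, was itself given LPS at 28 days and was killed 2 hours later. All signals below are therefore those of an acutely challenged gland, and no gland of an unchallenged piglet was analysed here. Amounts of omega-3 fatty acids in the diets or in the tissue are not given in the sources used here.

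Fish oil and marine microalgae supply the long-chain omega-3 fatty acids, which are built into membrane phospholipids and passed from dam to offspring. Mammals can also make them from shorter precursors through desaturases and elongases. They compete with arachidonic acid as substrates of eicosanoid synthesis and bind nuclear receptors such as PPARA, which switches on genes of fatty acid oxidation. The adrenal cortex makes steroid hormones from cholesterol, and the medulla makes adrenaline and noradrenaline. Circulating LPS acts on both.

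Whole glands were hybridised to 1-colour Affymetrix arrays, and signals are on a log2 scale, so that a difference of 1 is a doubling. A signal belongs to its own probe set, and levels are not compared between genes. The tissue label matched the defining cortical signals on all arrays. CYP17A1, which directs steroids toward cortisol, averaged 12.39 ± 0.172 log2 in omega-3 glands and 12.27 ± 0.228 in control glands (SD, n = 13 and 6). Medullary enzymes were present too: PNMT, which makes adrenaline, averaged 7.10 ± 0.719 in omega-3 glands and 7.22 ± 0.89 in control glands. STAR, CYP11A1, CYP11B1, MC2R, TH and CHGA could not be looked up, since no probe set here carries those symbols alone. In bulk tissue, fewer cells of a type and less RNA per cell cannot be told apart. Array medians ranged from 4.38 to 4.52 in omega-3 glands and from 4.41 to 4.51 in control glands. The interquartile range of an array ran from 2.27 to 2.65 in omega-3 glands and from 2.39 to 2.58 in control glands. Piglet 24 (fish oil, maternal LPS) had the narrowest spread of the omega-3 arrays and piglet 6 (control diet, maternal LPS) the narrowest of the controls. Without piglet 6, 45 of the 140 named genes and probe sets moved by over 1.5 times or turned sign. So did 31 without piglet 16 (control diet, maternal LPS) and 10 without piglet 24. Among the 42 at an unadjusted p under 0.05 only FTL did so, without piglet 6. Other piglets were not counted this way. Values without piglet 6 follow for some of the genes it moved, and values without piglet 8 or 16 for some. Genes given without such values also moved, among them HERC5 (-0.23 to -0.09), JUN (0.12 to 0.04) and PAX5 (-0.21 to -0.11) without piglet 6.

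The first question was which adrenal genes differed between piglets of omega-3 dams and piglets of control dams. In limma, 0 of 20668 probe sets passed an adjusted p of 0.05 (0%), and the smallest adjusted p was 1. At an unadjusted p under 0.05, 230 probe sets were higher in omega-3 glands (1.11%) and 224 were lower (1.08%). In 0 probe sets (0%) did all 13 omega-3 arrays lie on one side of all 6 control arrays. The median difference over all probe sets was 0.002 log2, with a median standard error (SE) of 0.128.

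These arrays bounded the size of most differences. The 95% interval of the omega-3 minus control difference lay within ±0.5 log2 for 81.8% of probe sets and within ±1 log2 for 98%. Within ±0.3 log2 it lay for 30.9%, so smaller differences were not resolved for most genes. Estimated differences exceeded 0.5 log2 in 165 probe sets and 1 log2 in 10.

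No gene named in the following paragraphs passed the adjusted threshold in this comparison. The first genes named have the largest differences among those reaching an unadjusted p of 0.01, with 12 on the higher and 8 on the lower side in omega-3 glands. All share an adjusted p of 1 in limma. The values show where the measured differences lay and do not establish a change.

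LMO4, a LIM-domain cofactor of transcription factors, had the largest difference of the 12. Its signal ran from 6.66 to 7.71 log2 in omega-3 glands (mean 7.05 ± 0.312), against 6.19 to 6.91 in control glands (mean 6.52 ± 0.335). The groups overlapped, with 8 of 13 omega-3 piglets above the highest control. The difference was 0.52 ± 0.15 (SE; 1.43-fold), with an unadjusted p of 0.00252. It was alike in size after either maternal challenge, at 0.53 after LPS and 0.50 after saline.

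PRKCB, protein kinase C beta, was higher by 0.41 ± 0.12. Omega-3 glands ran from 4.59 to 5.32 (median 5.12) and control glands from 4.19 to 5.07 (median 4.70). PPP1R18, which links protein phosphatase 1 to actin filaments, was higher by 0.39 ± 0.108, with 9 omega-3 piglets above the highest control. A second PPP1R18 probe set differed by 0.00. UHMK1, a serine/threonine kinase, had the most omega-3 piglets above the controls of these 12 genes. It ran from 6.90 to 7.43 in omega-3 glands (median 7.16), against 6.82 to 7.02 in control glands (median 6.89). Of the omega-3 piglets 12 of 13 lay above every control, though the difference itself was small, 0.27 ± 0.0824.

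RGL2, an exchange factor for the small GTPase Ral, had 11 of 13 omega-3 piglets above the highest control and a difference of 0.31 ± 0.0954. SUN2, an inner nuclear membrane protein that couples the nucleus to the cytoskeleton, was higher by 0.27 ± 0.0852. The other 6 of the 12 were FAM69B (0.37), HARBI1 (0.33), IGDCC4 (0.31), ENTPD5 (0.31), NXPE3 (0.29) and YIPF3 (0.25), with standard errors between 0.0859 and 0.112. Their omega-3 and control ranges all overlapped.

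**Figure D1:**
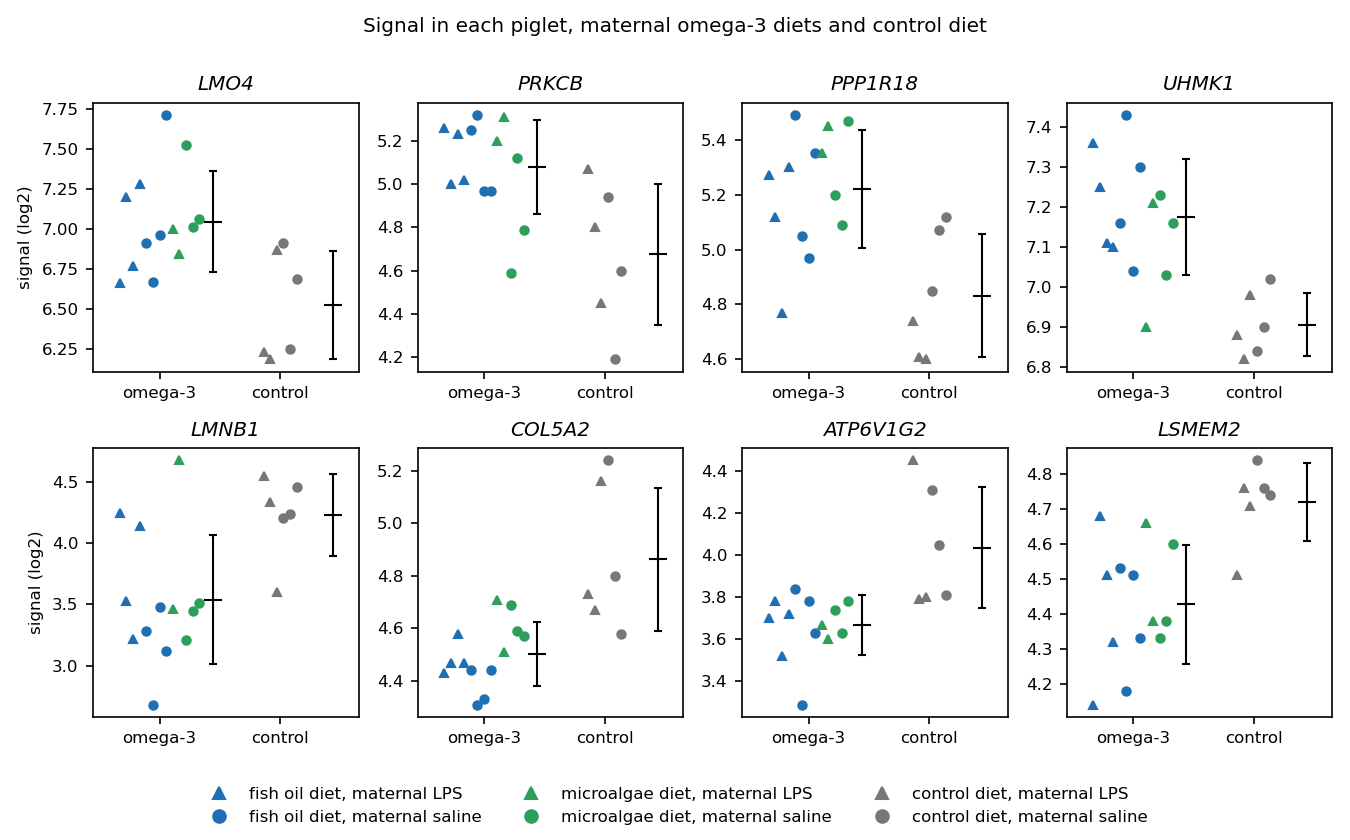
Signal (log2) of 8 genes in each piglet, omega-3 glands left and control glands right, with colour for the dam's diet and triangles for maternal LPS or circles for maternal saline. The horizontal bar is the mean and the whisker 1 SD (n = 13 and 6). Of the omega-3 points 12 of 13 lie above all controls for UHMK1 and 12 of 13 below all controls for ATP6V1G2, and the groups overlap in all 8 panels.

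On the lower side the largest difference of the 8 was that of LMNB1, lamin B1, a component of the nuclear lamina. It ran from 2.68 to 4.68 in omega-3 glands (median 3.46), against 3.60 to 4.55 in control glands (median 4.29). The difference was -0.68 ± 0.205 (0.624-fold), and 10 of 13 omega-3 piglets lay below the lowest control. Both ends of the overlap were single piglets, number 23 (microalgae) at 4.68 and number 17 (control diet) at 3.60. It was -0.28 after maternal LPS and -1.06 after maternal saline, and a second LMNB1 probe set gave -0.03.

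ATP6V1G2, a subunit of the proton pump that acidifies organelles, lay between 3.29 and 3.84 in omega-3 glands (median 3.70) and between 3.79 and 4.45 in control glands (median 3.93). The difference was -0.37 ± 0.107, with 12 of 13 omega-3 piglets below the lowest control. COL5A2, a chain of fibrillar type V collagen, ran from 4.31 to 4.71 in omega-3 glands (median 4.47), against 4.58 to 5.24 in control glands (median 4.76). Its difference was -0.36 ± 0.0982 (unadjusted p 0.00162), and 10 of 13 omega-3 piglets lay below every control.

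ANK3, the membrane scaffold ankyrin-G, was lower by 0.36 log2, at -0.36 ± 0.11. TRIM31, a ubiquitin ligase, gave -0.42 ± 0.117, while a second probe set of the gene gave 0.20. CSPG4, the pericyte proteoglycan NG2, gave -0.34 ± 0.118, and a second, brighter probe set gave 0.06. LZTS1 (-0.30) and LSMEM2 (-0.29) complete the 8. For TRIM31, LMNB1 and CSPG4, as for PPP1R18, the probe sets of 1 gene thus disagreed. TSPAN1, a tetraspanin membrane protein, had the smallest p among the genes named here by symbol (0.00093) with a difference of 0.47 ± 0.121, but its control mean, 3.15, lay under the filter level of 3.23.

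The comparison pools 2 supplements, so each was also set against the same 6 control glands. In limma 0 probe sets passed for fish oil (0%) and 0 for microalgae (0%), with 572 and 336 at an unadjusted p under 0.05. The fish oil diet tested directly against the microalgae diet gave 0 calls (0%), with 510 at an unadjusted p under 0.05 (2.47%). Because both diets are compared with the same controls, their values are given side by side and nothing is read from their likeness. LMO4 differed by 0.50 in fish oil and 0.55 in microalgae glands, PRKCB by 0.45 and 0.35, and PPP1R18 by 0.33 and 0.47. COL5A2 gave -0.43 in fish oil and -0.24 in microalgae glands, ANK3 -0.27 and -0.51, and LMNB1 -0.77 and -0.53.

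**Figure D2:**
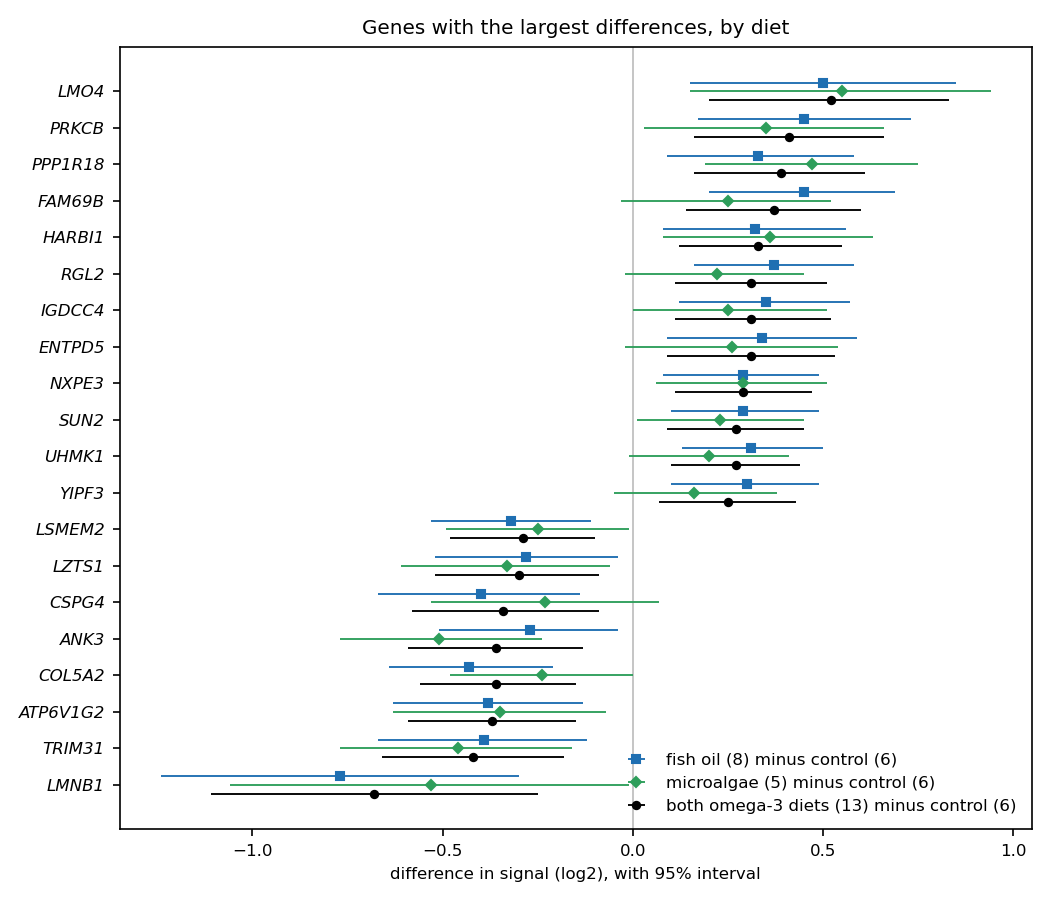
Difference in signal (log2) against the 6 control glands for the 20 named genes, with 95% intervals, for fish oil (8 piglets, blue), microalgae (5, green) and both pooled (13, black). LMO4 has 0.50, 0.55 and 0.52, and LMNB1 -0.77, -0.53 and -0.68.

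The genes named next were chosen for the size of their fish oil minus microalgae difference, and none passed the adjusted threshold. For them the pooled difference averages 2 estimates that lay apart. HSD11B2, the enzyme that inactivates cortisol, ran from 6.10 to 6.74 in fish oil glands (median 6.32), against 5.40 to 6.67 in microalgae glands (median 5.54). Control glands ran from 5.56 to 6.26 (median 5.76). The fish oil minus microalgae difference was 0.56 ± 0.175 (unadjusted p 0.00441, limma adjusted p 1), and the pooled omega-3 minus control difference was 0.32 ± 0.182. All 5 microalgae piglets but 1 lay below the lowest fish oil piglet.

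BCKDK, the kinase that restrains branched-chain amino acid breakdown, differed between fish oil and microalgae by 0.50 ± 0.159. The dendritic and B cell activation marker CD83 differed by 0.50 ± 0.174 and SRGAP2 by 0.48 ± 0.146. In the other direction stood SMYD1 (-0.90), EPHB2 (-0.53), HAPLN3 (-0.51) and AOC2 (-0.48). SMYD1, a muscle histone methyltransferase, owed its place to microalgae piglet 22 at 6.40, and without it the difference was -0.46.

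The gene groups of lipid handling, steroid synthesis, inflammation and resident cell types were then described by their counts and medians. The 29 described lists held 602 genes, of which 13 on the higher and 7 on the lower side reached an unadjusted p of 0.05. Over all 9992 genes with 1 probe set each, 122 on the higher side (1.22%) and 84 on the lower side (0.841%) reached that p. By sign alone, 5388 of all genes (53.9%) and 356 of the 602 list members were higher in omega-3 glands. Among all genes that share was 46.5% under 4 log2, 60.2% at 6 to 8 log2, 61.7% at 8 to 10 log2 and 81.3% above 10 log2. Counts of higher members below stand against these shares, and several lie near them. The median difference was 0.01 log2 over all genes and 0.03 over the list members. Members named below mostly lie on the side of their list's median, by the naming rule. CARTPT, MFSD2A, EGR4, CYR61, EPHX1, ALOX5AP, PTGER3, NPC1, STARD5 and APOA1 were added after their values were seen, to show other members. The median also moved with signal strength, from -0.013 for genes averaging under 4 log2 to 0.05 for the 75 genes above 10 log2. That 0.05 became -0.006 after quantile normalization, so small positive medians of bright lists depend on the scaling.

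Fatty acid desaturation and elongation had 11 of 14 measured members higher and 3 lower, with a median of 0.105 and 0 at an unadjusted p under 0.05. FADS2, the delta-6 desaturase, averaged 9.76 ± 0.161 in omega-3 glands and 9.59 ± 0.33 in control glands. FADS1, the delta-5 desaturase, differed by 0.12 ± 0.186 over both supplements, with -0.04 for fish oil and 0.39 for microalgae, and by 0 without piglet 6. FADS6 had 0.21 ± 0.135 and the elongase ELOVL4 0.12 ± 0.113. The list median was 0.033 without piglet 6 and 0.05 without piglets 6 and 24.

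Cholesterol synthesis stood highest of the lists, with 14 of 15 members higher and a median of 0.132. HMGCS1, an early enzyme of the route, averaged 8.88 ± 0.547 in omega-3 glands and 8.55 ± 0.485 in control glands. STARD4, which carries cholesterol between membranes, had 0.35 ± 0.254 and SC5D, a late desaturase, 0.27 ± 0.24. Without piglet 6, HMGCS1 differed by 0.17, STARD4 by 0.28 and SC5D by 0.07. None of the 15 reached an unadjusted p under 0.05. The list's mean signal ran from 5.98 to 7.24 in omega-3 glands (median 6.65), against 5.90 to 6.80 in control glands (median 6.68). The ranges overlapped, and the median was lower in omega-3 glands. The lowest control was piglet 6, without which the median difference was 0.024. Without piglets 6 and 24 it was 0.018.

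**Figure D3:**
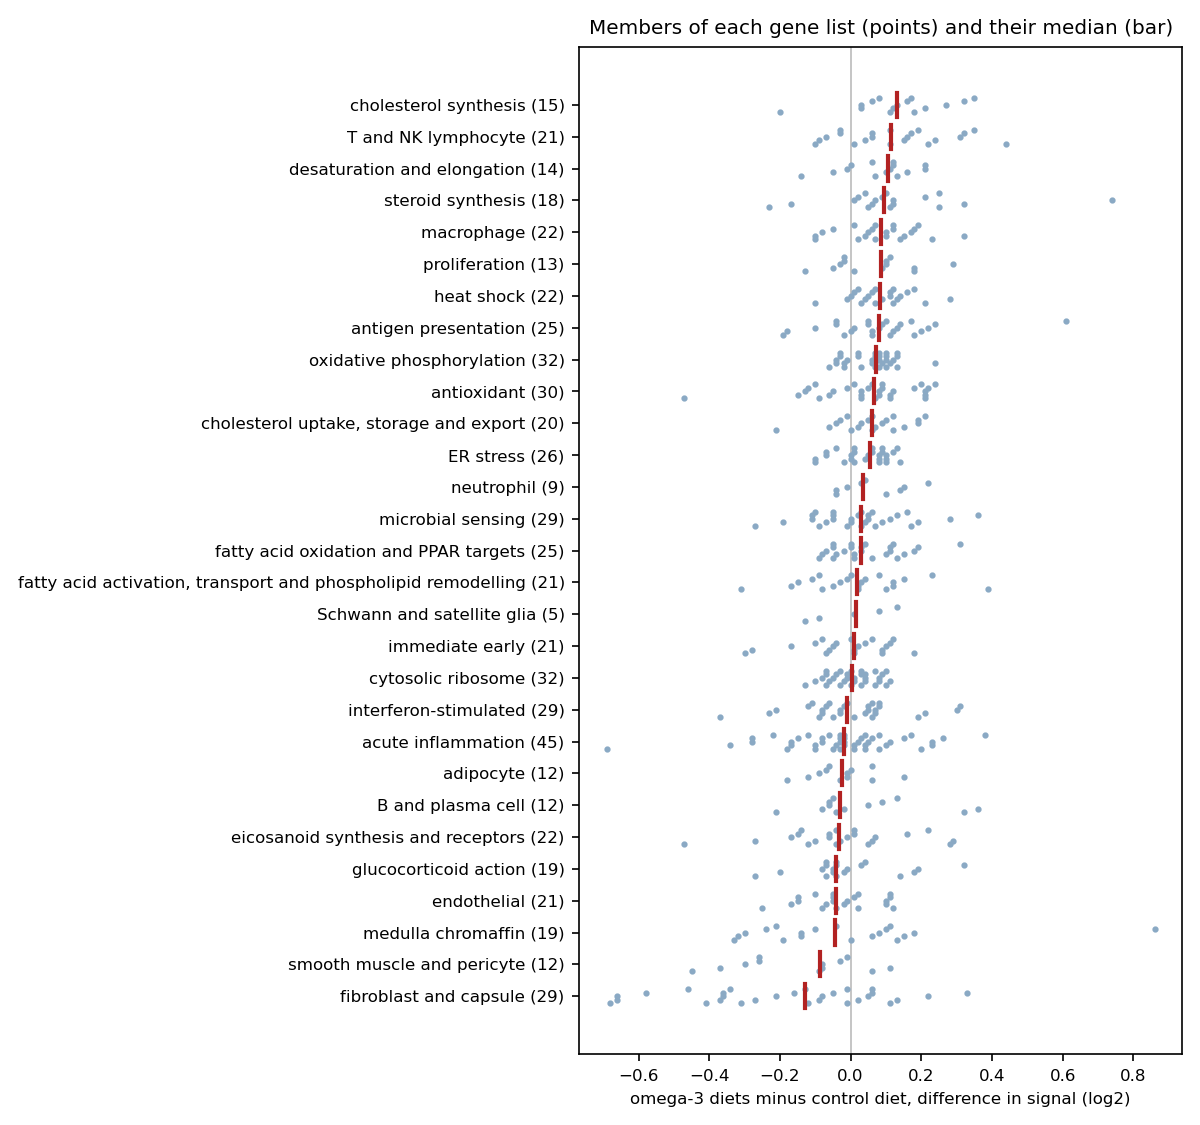
Omega-3 minus control difference (log2) of each measured member (point) and the median (red bar) for 29 gene lists, with the number of members in parentheses. Medians run from 0.132 (cholesterol synthesis) to -0.129 (fibroblast and capsule), against 0.01 over all genes, and members of every list fall on both sides of 0.

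Steroid synthesis genes had 16 of 18 members higher and a median of 0.094. CYP21A2, the 21-hydroxylase needed for cortisol and aldosterone, ran from 10.96 to 11.49 in omega-3 glands (median 11.31), against 10.74 to 11.35 in control glands (median 11.04). The difference was 0.25 ± 0.106 (unadjusted p 0.0296), and 6 of 13 omega-3 piglets lay above the highest control. KCNK9, a background potassium channel of zona glomerulosa cells, differed by 0.74 ± 0.25, with a control mean under the filter level. CYP17A1 differed by 0.12 ± 0.102, HSD3B1, which makes progesterone, by 0.09 ± 0.147, and SCARB1, the receptor for HDL cholesterol, by 0.12 ± 0.149. Without piglet 6, SCARB1 differed by 0.01 and HSD3B1 by 0.04. Without piglet 8, also a control piglet, SCARB1 differed by -0.01, HSD3B1 by -0.02, CYP17A1 by 0.03 and CYP21A2 by 0.18. The median was 0.063 after quantile normalization and 0.043 without piglet 6.

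Cholesterol uptake, storage and export genes had 14 of 20 members higher, median 0.06. They included the triglyceride lipase PNPLA2 (0.19, and 0.1 without piglet 6), NPC1 (0.21) and NPC2 (0.19), which move cholesterol out of lysosomes, STARD5 (0.15) and the oxysterol receptor NR1H2 (0.12). The smallest p of the list was that of APOA1, the main protein of HDL, on the lower side (-0.21 ± 0.116). Genes of glucocorticoid action had 6 of 19 higher, median -0.04, with differences from -0.271 to 0.317 and 0 at an unadjusted p under 0.05. On the lower side were KLF9 (-0.27 ± 0.131), CDKN1A (-0.20) and CEBPB (-0.07). NR3C1, the glucocorticoid receptor, differed by -0.04 ± 0.141.

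Of 25 genes of fatty acid oxidation and PPAR targets, 16 were higher, with a median of 0.028. CPT2, which completes the transfer of fatty acids into mitochondria, ran from 4.41 to 5.50 in omega-3 glands (median 4.93), against 4.34 to 4.73 in control glands (median 4.65). It differed by 0.31 ± 0.118, and 11 of 13 omega-3 piglets lay above the highest control. CPT1A, the rate-limiting transferase, differed by 0.12 ± 0.0901, PPARA by 0.19 ± 0.14 (0.09 without piglet 6) and PPARG by -0.09 ± 0.142. ACADS had 0.15 and SLC25A20, the carnitine carrier, 0.18. The list median was 0.082 for fish oil and -0.034 for microalgae against the shared controls.

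Fatty acid activation, transport and phospholipid remodelling were evenly divided, 11 higher and 10 lower, with a median of 0.017. AGPAT2, which makes phosphatidic acid, had the largest difference of the list at 0.39 ± 0.146, and the transporters SLC27A4 and SLC27A1 had 0.23 and 0.12. On the lower side MFSD2A, which carries docosahexaenoic acid as a lysophospholipid into cells, had -0.31 ± 0.163, the second smallest p of the list. Eicosanoid synthesis and receptors had 9 of 22 higher and 13 lower, with a median of -0.034 and 0 at an unadjusted p under 0.05. PTGS2, the inducible cyclooxygenase, ran from 5.09 to 7.11 in omega-3 glands (median 5.89), against 5.51 to 6.58 in control glands (median 6.22). PTGES, which makes prostaglandin E2, differed by -0.27 ± 0.232, the prostacyclin synthase PTGIS by -0.15 ± 0.125 and PTGFR by -0.47 ± 0.345. On the higher side stood the epoxide hydrolase EPHX1 (0.28 ± 0.17), which had the smallest p of the list, ALOX5AP (0.29 ± 0.279) and PTGER3 (0.22 ± 0.268). Without piglet 6, PTGES differed by -0.52 and PTGS2 by -0.31, and without piglet 16, also a control piglet, by -0.13 and -0.08.

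Acute inflammatory genes showed no common direction over both maternal challenges. Of 45 measured, 20 were higher and 25 lower, with a median of -0.018. After maternal LPS 13 were higher and 32 lower (median -0.099), and after maternal saline 28 were higher and 17 lower (median 0.094). The median after LPS was -0.03 without piglet 17, and that after saline 0.021 without piglet 8, both control piglets. IL6 ran from 8.83 to 11.36 in omega-3 glands (median 10.20), against 8.98 to 11.13 in control glands (median 10.69). Its difference of -0.28 ± 0.369 has a 95% interval from -1.05 to 0.49. TNF differed by 0.23 ± 0.182. Without piglet 6, IL6 differed by -0.52 and TNF by 0.35, and without piglet 16, also a control piglet, by -0.07 and 0.18. The 1 member at an unadjusted p under 0.05 was PTX3, a soluble pattern recognition protein, at -0.69 ± 0.315, with -1 for fish oil and -0.18 for microalgae. PLAU had -0.34 ± 0.185 and NFKBIZ -0.28 ± 0.179.

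T and NK lymphocyte genes were higher in 16 of 21 measured members, with a median of 0.115, and 3 reached an unadjusted p under 0.05. These were NKG7, a granule protein of cytotoxic cells (0.31 ± 0.112), and the T cell surface proteins CD5 (0.32 ± 0.145) and CD2 (0.44 ± 0.204). The list's mean signal ran from 4.26 to 4.78 in omega-3 glands (median 4.51), against 4.33 to 4.49 in control glands (median 4.36). The ranges overlapped, with 8 of 13 omega-3 piglets above the highest control and 2 below the lowest. The median stayed between 0.086 and 0.161 when any single piglet was left out.

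Macrophage genes had 18 of 22 members higher, median 0.087, led by ITGAM (0.32 ± 0.155), FCER1G (0.23) and CD86 (0.19). Against the shared controls the median was 0.14 for fish oil, with 19 of 22 higher, and -0.008 for microalgae, with 11 higher. Antigen presentation had 18 of 25 higher, median 0.081, with 0.083 for fish oil (20 higher) and 0.005 for microalgae (13 higher). Its member of smallest p was SLA-DOB, a class II chain of the DO heterodimer, at 0.61 ± 0.231, followed by SLA-DOA (0.22) and SLA-DMA (0.17). Microbial sensing had 17 of 29 higher, median 0.03, with TLR9 (0.28 ± 0.105), TLR7 (0.36 ± 0.17) and MYD88 (0.19 ± 0.116) in front. A second TLR9 probe set gave -0.04. Neutrophil genes had 6 of 9 higher, median 0.036 (S100A9 0.14, S100A12 0.22, MMP9 0.10). B and plasma cell genes had 5 of 12 higher, median -0.03 (PAX5 -0.21, SDC1 -0.08, CD79B -0.06).

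The fibroblast and capsule list had the lowest median. Of 29 measured members, 8 were higher and 21 lower, with a median of -0.129, and COL5A2 and COL6A3 were lower at an unadjusted p under 0.05. COL6A3, a type VI collagen chain, differed by -0.34 ± 0.144, and COL3A1, a major interstitial collagen, by -0.58 ± 0.282. Another 2 COL6A3 probe sets gave -0.51 and -0.23. The list's mean signal ran from 4.91 to 6.24 in omega-3 glands (median 5.51), against 4.91 to 6.25 in control glands (median 5.86). The ranges nearly coincided.

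The fibroblast median was -0.298 for fish oil, with 24 of 29 members lower, and 0.03 for microalgae, with 14 lower, against the shared controls. It was -0.279 without piglet 6 and -0.035 without piglet 8, both control piglets. Smooth muscle and pericyte genes had 10 of 12 members lower and a median of -0.087, with the contractile proteins SMTN (-0.26 ± 0.118), CNN1 (-0.37 ± 0.199) and TAGLN (-0.30 ± 0.178). The median was -0.228 for fish oil and -0.043 for microalgae against the shared controls. It was -0.043 without piglet 17 and -0.161 without piglet 16, both control piglets.

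Medulla chromaffin genes had 8 of 19 higher, median -0.043, which was 0.098 without piglet 6 and -0.214 without piglet 16, both control piglets. DBH, the noradrenaline-making enzyme, differed by -0.19 ± 0.308 and PNMT by -0.14 ± 0.334. DBH differed by 0.01 without piglet 6 and -0.41 without piglet 16, and PNMT by 0.02 and -0.46. PCSK1 (-0.32), GAL (-0.33) and SCG5 (-0.24), all of secretory granules, had standard errors between 0.172 and 0.263. Without piglet 6, PCSK1 differed by -0.19, GAL by -0.02 and SCG5 by -0.08. The largest difference of the list was that of the neuropeptide precursor CARTPT, on the higher side, at 0.86 ± 0.655. Endothelial genes had 8 of 21 higher, median -0.042 (ECSCR -0.25 ± 0.101, NOS3 -0.17, RAMP2 -0.15). Adipocyte genes had 3 of 12 higher, median -0.023 (AQP7 -0.18, or -0.05 without piglet 6, CFD -0.09, GPD1 -0.12). Schwann and satellite glia had 3 of 5 higher, median 0.014 (L1CAM 0.13, SOX10 0.08, MAL 0.01).

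Of the groups tied to energy and stress, heat shock genes had 20 of 22 higher and a median of 0.083, which was 0.04 after quantile normalization. HSPA2 differed by 0.21 ± 0.126, DNAJA4 by 0.28 ± 0.239 and the chaperone HSP90AB1 by 0.13 ± 0.115. Oxidative phosphorylation had 24 of 32 higher, median 0.073, with 0.116 for fish oil and -0.02 for microalgae. Its leading members were NDUFA1 (0.24), ATP5B (0.13) and COX6A1 (0.12).

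Antioxidant genes had 21 of 30 higher, median 0.067, and 3 at an unadjusted p under 0.05. These were the glutaredoxin GLRX2 (0.22 ± 0.0912), the quinone reductase NQO1 (0.24 ± 0.107) and the ferritin light chain FTL (0.21 ± 0.0935, and 0.13 without piglet 6). ER stress genes had 18 of 26 higher, median 0.054 (XBP1 0.13, PDIA4 0.12, CHAC1 0.14), and proliferation genes 8 of 13, median 0.086 (MCM4 0.29, E2F1 0.18, TOP2A 0.18). Immediate early genes had 12 of 21 higher, median 0.01 (JUN 0.12, DUSP4 0.18, DUSP2 0.10). The only members at an unadjusted p under 0.05 were EGR4 (-0.28 ± 0.13) and CYR61 (-0.30 ± 0.142), both lower. Cytosolic ribosome genes had 17 of 32 higher, median 0.005 (RPS3A 0.10, RPLP0 0.11, RPL8 0.10). The immediate early and ribosome medians turned negative after quantile normalization, at -0.008 and -0.027.

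The diet comparison was then made separately after each maternal challenge, and the difference between the 2 diet differences was tested as an interaction. In limma 0 probe sets passed for the interaction (0%) and 0 for omega-3 against control after maternal LPS (0%). At an unadjusted p under 0.05 the interaction had 279 probe sets on the higher side (1.35%) and 300 on the lower side (1.45%). After maternal saline 1 of 20668 probe sets passed (0.00484%).

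That probe set, 15344727, has no gene symbol in the array annotation. After maternal saline its signal was 8.67 to 10.64 log2 in the 7 omega-3 glands (median 10.09), against 5.54, 6.21 and 7.54 in the 3 control glands. The groups did not overlap, though the share of all probe sets doing so was not counted. The difference was 3.34 ± 0.51 with a limma adjusted p of 0.0498. After maternal LPS it was 8.02 to 10.39 in the 6 omega-3 glands (median 10.12), against 8.91, 9.02 and 9.89 in the 3 control glands. There the groups overlapped, and the difference was 0.46 ± 0.522. The interaction was -2.88 ± 0.73 (unadjusted p 0.000815, limma adjusted p 1). Over both challenges the difference was 1.94 ± 0.477, the largest of the comparison. The call after saline was kept without piglet 11, 20, 21 or 22 and lost without any one of the other 15. It was also lost with no filter on low values, with quantile normalization and when the saline arrays alone were fitted, where 0 probe sets passed. With median centring and with array weights the call was kept (limma adjusted p 0.0342 and 0.00285).

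Among named genes, the largest interactions on the lower side were those of C1QC, PSTPIP2, LY96 and TIMP1. C1QC, a chain of the complement protein C1q, was 5.61 to 6.89 in omega-3 glands after maternal LPS (median 6.28), against 6.68, 6.89 and 7.17 in control glands. After maternal saline it was 6.0 to 8.08 in omega-3 glands (mean 7.03 ± 0.663), against 6.14, 6.27 and 6.42 in control glands. The groups overlapped after both challenges. The omega-3 difference was thus -0.64 ± 0.318 after LPS and 0.75 ± 0.31 after saline. The interaction was -1.39 ± 0.444 (unadjusted p 0.00528, limma adjusted p 1).

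LY96, the MD-2 protein that presents LPS to TLR4, had an interaction of -1.19 ± 0.291 (unadjusted p 0.000598). Its omega-3 difference was -0.59 ± 0.208 after LPS and 0.60 ± 0.203 after saline. PSTPIP2, an actin-associated protein of macrophages, had -1.32 ± 0.382 and TIMP1, the inhibitor of matrix metalloproteinases, -1.14 ± 0.33. For TIMP1 all 6 omega-3 glands after LPS, 8.52 to 9.27, lay below all 3 controls, 9.45 to 9.97. TIMP1 was chosen for its interaction, and the share of all probe sets separating this way between 6 and 3 glands was not counted. After saline the TIMP1 groups overlapped.

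The largest interactions on the higher side were LRRC8B (1.01 ± 0.343), RAD51B (0.88 ± 0.248), USF3 (0.84 ± 0.213) and ZNF646 (0.82 ± 0.251). RAD51B, which takes part in DNA repair, was 4.46 to 5.05 in omega-3 glands after maternal LPS, against 3.47, 4.21 and 4.41 in control glands. After saline it was 4.24 to 4.62 in omega-3 glands and 4.59, 4.66 and 4.73 in control glands. The groups overlapped after saline and not after LPS. The lowest control after LPS, at 3.47, was piglet 6, without which the RAD51B interaction was 0.6. LRRC8B is a subunit of volume-regulated anion channels. USF3 was 5.18 to 5.64 in omega-3 glands after LPS, against 4.72 to 4.97 in control glands, with no overlap. RAD51B and USF3 were likewise chosen for their interactions, and the share of all probe sets not overlapping after LPS was not counted.

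**Figure D4:**
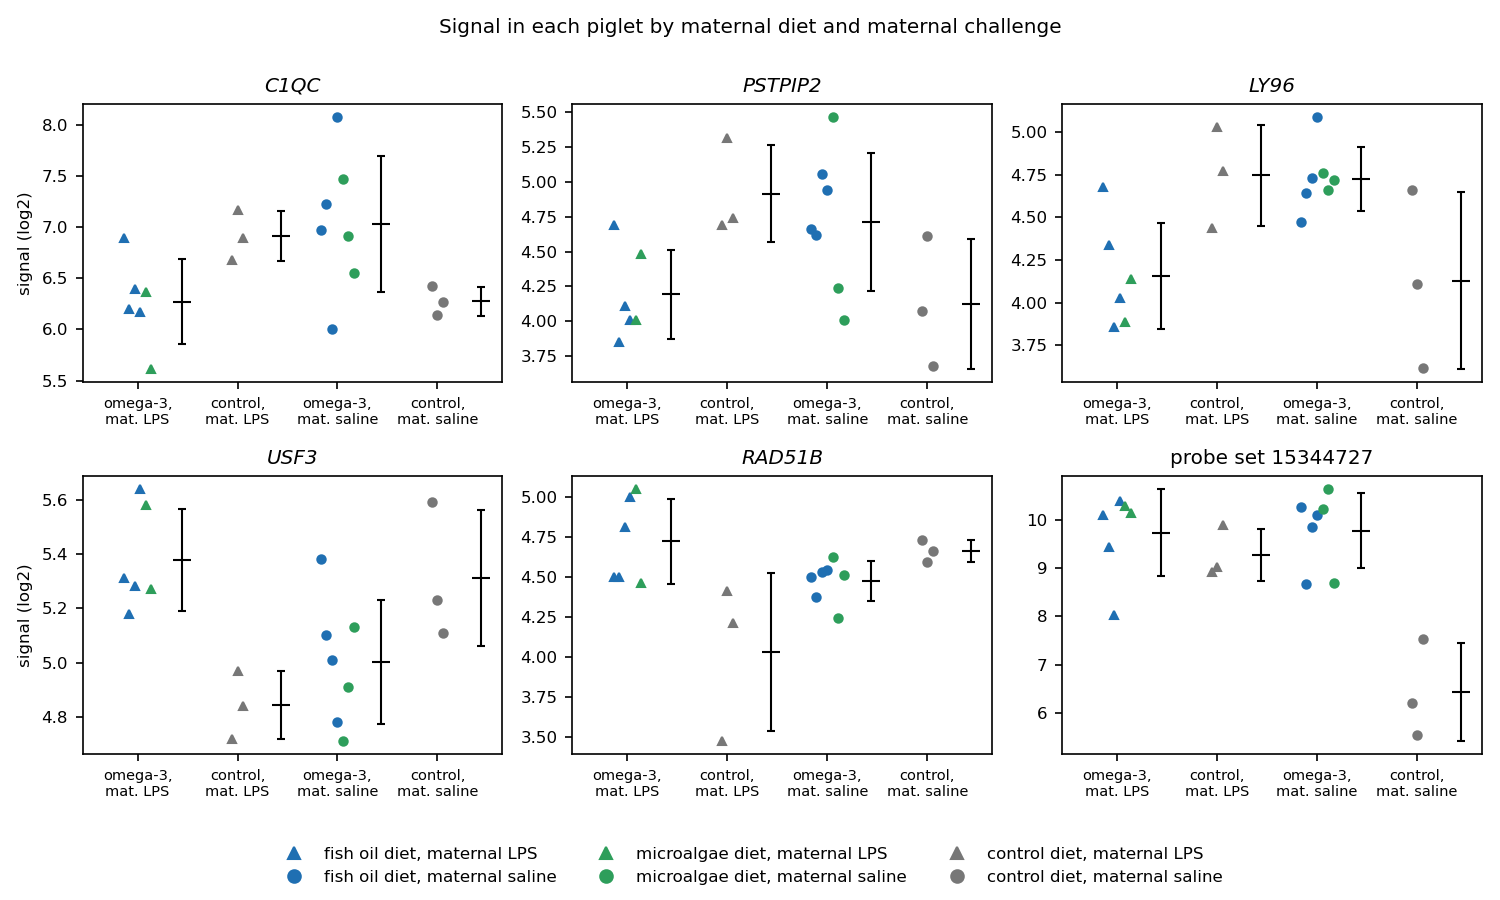
Signal (log2) in each piglet for 5 genes and probe set 15344727, with omega-3 left of control after maternal LPS and again after maternal saline. Bars and whiskers are means and 1 SD (n = 6, 3, 7 and 3). Probe set 15344727 is at 5.54 to 7.54 in the 3 control glands after saline and at 8.02 or above in all others, and C1QC has an omega-3 difference of -0.64 after LPS and 0.75 after saline.

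Of the 29 lists, the interferon-stimulated genes, which act against viruses, had the largest median interaction (-0.515), followed by the macrophage list (-0.394). Over both challenges their 29 measured members were 14 higher and 15 lower with a median of -0.01, and OAS1 (-0.37 ± 0.177), HERC5 (-0.23) and OAS2 (-0.21) were the members of smallest p on the lower side. That median was 0 with median centring and 0.111 without piglet 20. After maternal LPS 0 were higher and 29 lower in omega-3 glands, with a median of -0.285. After maternal saline 27 were higher and 2 lower, with a median of 0.292. Median differences over all genes were -0.002 after LPS and 0.017 after saline. The list is bright, with a median member level of 7.93 log2. Genes averaging 6 to 8 log2 had medians of -0.015 after LPS and 0.052 after saline, and those at 8 to 10 log2 -0.046 and 0.08. The median interaction was -0.014 over all genes, -0.064 at 6 to 8 log2 and -0.115 at 8 to 10 log2.

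For the interaction itself 6 of the 29 were on the lower side at an unadjusted p under 0.05, where 1.52% of all genes were, and 0 on the higher side, where 1.32% were. None passed the adjusted threshold, and genes of 1 pathway in the same glands are not separate observations. The list's mean signal was 6.68 to 8.34 in omega-3 glands after LPS (median 7.69), against 7.87, 7.93 and 8.06 in control glands. After saline it was 7.87 to 8.64 in omega-3 glands (median 8.46), against 7.98, 8.17 and 8.17 in control glands. The ranges overlapped after both challenges. After LPS the lowest gland was piglet 20 (fish oil), without which the median after LPS was -0.081. Without piglet 21 (control diet) the median after saline was 0.185, and its lowest value among the settings other than single piglets left out was 0.16.

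The macrophage list gave -0.111 after LPS, with 6 of 22 higher, and 0.303 after saline, with 21 higher. For the interaction 5 of 22 were on the lower side at an unadjusted p under 0.05. Its mean signal after LPS was 4.71 to 5.16 in omega-3 glands (median 4.81), against 4.98, 5.03 and 5.07 in control glands. After saline it was 4.66 to 5.38 in omega-3 glands (median 5.10), against 4.65, 4.68 and 4.87 in control glands. The ranges overlapped after both. The shift after saline ran from 0.221 to 0.404 when any single piglet was left out, and that after LPS from -0.215 to -0.057. T and NK lymphocyte genes had 0.201 after LPS, which was 0.104 without piglet 17, and 0.088 after saline, which was 0.046 without piglet 18.

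**Figure D5:**
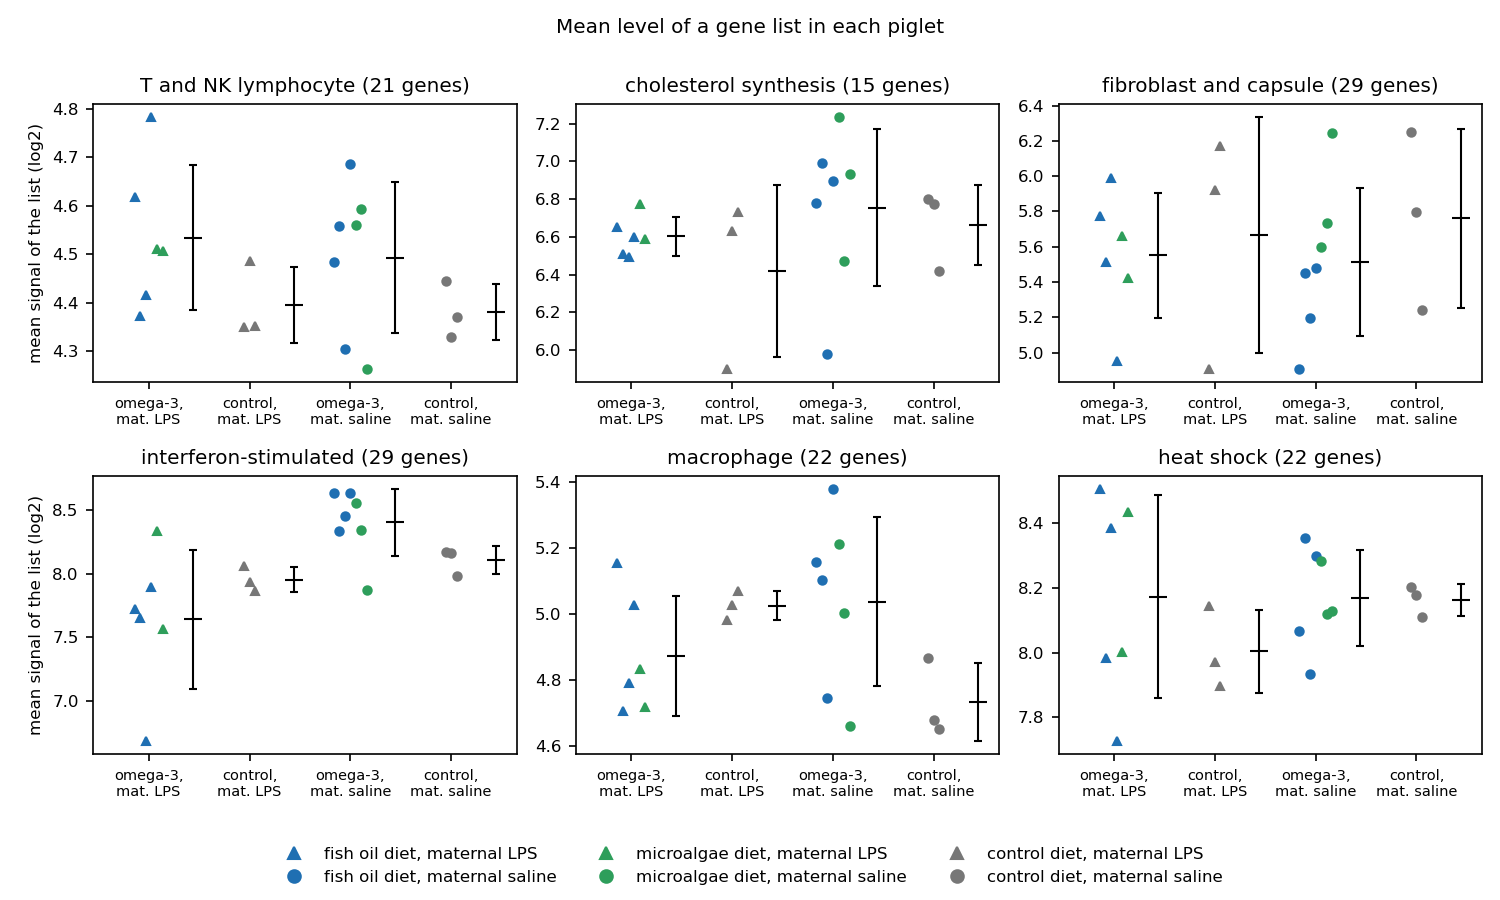
Mean signal (log2) of 6 gene lists in each piglet, with omega-3 left of control after maternal LPS and again after maternal saline, and with means and 1 SD (n = 6, 3, 7 and 3). Interferon-stimulated genes average 7.64 in omega-3 and 7.95 in control glands after LPS, and 8.41 in omega-3 and 8.11 in control glands after saline.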

How the data were processed

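Whole adrenal RNA of 19 piglets was measured on 1-colour Affymetrix arrays, labelled with the WT PLUS kit per the labels' protocols. The deposited values are log2 signals, with base 2 inferred from their range of 0.263 to 13.5, and were used as deposited. Transcriptome Analysis Console 4.0 is named in the submitters' processing notes. Summarization, normalization, array batches and genome build are not given in the sources used here, so no coordinates or sequences are printed. Array control probe sets were not identified and stayed in.

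Of 27558 probe sets, 13157 have 1 symbol, 523 several and 13878 none. The 6890 with a mean under 3.23 (the lowest 25%) were left out, and 10699 of the 20668 tested have 1 symbol. limma 3.58.1 (R 4.3.3; lmFit, eBayes with an intensity trend) fitted diet plus maternal challenge, with 16 residual and 4.61 prior degrees of freedom. Diet at 3 levels, and 4 diet-by-challenge means, were fitted on the same arrays. All p-values are from 2-sided tests, Benjamini-Hochberg adjusted across the 20668 probe sets at a threshold of 0.05. They measure the spread between piglets, and the number of arrays limits precision. The workflow was tested on simulated data.

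The members and the 30 gene lists (29 with at least 5 measured members, each symbol by its brightest probe set) were chosen with earlier results of these data known. Named genes are the 12 largest differences each way at an unadjusted p under 0.01 with both means at or above the filter level (8 on the lower side), the 6 smallest p values, up to 3 members of smallest p per list in the direction of its median, the 4 largest each way at an unadjusted p under 0.01 for fish oil against microalgae and for the interaction, and 18 fixed genes, of which 16 were tested. Any gene with all 13 omega-3 arrays on one side of the controls would also have been named. Alternatives changed the filter, scaling, array weights, covariates and samples, and left out each of the 19 piglets.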

Additional observations from a re-analysis of the deposited data

Results flagged for a closer look

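In each diet group (8 fish oil, 5 microalgae and 6 control piglets), 169 reported genes and lists were searched for a single piglet far from the rest, which gave 507 searches. In 28 of them (5.52%) the gap between 1 extreme piglet and its nearest neighbour was a large share of the group's range, and chance flags about 1 group in 20. Piglet 22 (microalgae) had 5 of the 28. The values below are log2 signals, and their causes were not tested.

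Among microalgae glands, piglet 22 was low for the unnamed probe set 15344727 (8.69), AGPAT2 (5.73), GAL (5.44) and the mean of the T and NK lymphocyte list (4.26), and high for SMYD1 (6.40). Piglet 23 was high for LMNB1 (4.68) and for the unnamed probe set 15181483 (4.71), and low for TLR7 (2.83). Probe set 15181483 was lower in omega-3 glands by 1.09 log2, at -1.09 ± 0.255 (unadjusted p 0.000367, limma adjusted p 1), the smallest p of the comparison. Piglet 12 was high for CSPG4 (3.84) and the endothelial list (5.44), and low for NFKBIZ (7.62). Piglet 7 was high for COL6A3 (5.46) and EPHB2 (4.57).

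Among fish oil glands, piglet 9 was low for CSPG4 (2.82) and COL6A3 (4.16). Piglet 10 was high for MCM4 (4.57) and low for AQP7 (2.64). Piglet 24 was high for GPD1 (5.20) and low for NR3C1 (4.60). Piglet 13 was high for CPT2 (5.18), and piglet 19 was low for the neutrophil list (3.79).

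Among control glands, piglet 6 was low for FTL (9.83) and MYD88 (5.87). Piglet 16 was low for PNMT (5.44) and HAPLN3 (2.87). Piglet 17 was low for LMNB1 (3.60) and the proliferation list (3.74), and piglet 21 was high for TSPAN1 (3.61).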

How the results depend on the processing

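The count for either omega-3 diet against control was 0 under all 37 settings, the reported one included. For microalgae against control it was 1 with no filter on low values, a probe set without a symbol (0.81 ± 0.118, limma adjusted p 0.0314). The 1 call after maternal saline, probe set 15344727, became 0 with no filter, with quantile normalization, with the saline arrays fitted alone, and with piglets 6 and 24 left out together, a setting chosen after seeing the data. It stayed 1 with median centring and with array weights, and ranged from 0 to 1 when single piglets were left out. Counts at an unadjusted p under 0.05 were 454 in the comparison as reported, 688 with no filter, 258 with the lowest 50% left out, 862 with array weights and 683 after maternal saline alone. With array weights they were 1030 for fish oil, 646 for microalgae, 896 for fish oil against microalgae, 1181 for the interaction, 1170 after saline and 1041 after LPS. Microalgae had 530 with no filter, and fish oil against microalgae 877 without piglet 12. The share of these on the higher side was 50.7% as reported and ran from 45.2% (no filter) to 60.1% (lowest 50% left out). No gene chosen by the naming rule with an unadjusted p under 0.05 changed sign under any setting. EGR4 and CYR61, added later, were not followed over the settings. Over all settings the list medians of cholesterol synthesis, T and NK lymphocyte, steroid synthesis, heat shock and fibroblast genes kept their sign, and that of interferon-stimulated genes changed sign in 15 of 37. Leaving out 1 control piglet turned the sign of these other medians: fatty acid activation (-0.042), fatty acid oxidation (-0.012), endothelial (0.006) and ribosome (-0.01) without piglet 8, glucocorticoid action (0.02) and proliferation (-0.02) without 17, acute inflammation (0.023) without 16, microbial sensing (-0.013) without 21, B and plasma cell (0.015) without 6, and Schwann (-0.02) and immediate early (-0.084) without 14. Others shrank by over 1.5 times: antioxidant (0.018) and ER stress (0.022) without 6, macrophage (0.027) and oxidative phosphorylation (0.035) without 21, cholesterol uptake (0.016) without 8, antigen presentation (0.04) and eicosanoid (-0.009) without 14, heat shock (0.044) and smooth muscle (-0.043) without 17, neutrophil (0.017) without 21, and adipocyte (-0.006) without fish oil piglet 11. Among the medians that grew by over 1.5 times were cholesterol synthesis (0.214) and macrophage (0.134) without fish oil piglet 13 and smooth muscle (-0.161) without 16. The causes were not tested. Differences under 0.3 log2 were mostly not resolved by 19 arrays. No paired analysis was possible because replicate numbers follow accession order and pair no piglets across groups.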
